A study of Drosophila melanogaster with 10 samples.

Results

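The basement membrane genes of the adult fly were examined in whole males with and without knockdown of the transcription factor Mef2. The set is a list of 10 genes for collagen IV, laminin, perlecan and associated matrix proteins, and 9 of them had a row among the 17559 gene identifiers of the count table. The exception was trol, which encodes perlecan: its current identifier has no row, so trol is not analysed here. All 9 passed the filter on low counts and were tested.

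A basement membrane is a thin sheet of extracellular matrix that underlies epithelia and wraps muscle, gut, fat body and nerves. Laminin trimers form one network and bind integrins and dystroglycan on cells, collagen IV trimers form a second, crosslinked network that gives the sheet its strength, and nidogen and perlecan join the networks. In Drosophila, much of the collagen IV is made by the larval fat body and by hemocytes, the blood cells, and reaches other organs through the hemolymph. Collagen IV chains are hydroxylated in the endoplasmic reticulum before they leave the cell.

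There were 5 control libraries and 5 knockdown libraries, each of polyadenylated RNA from 5 pooled males aged 5 to 10 days after eclosion. Control males were w[1118] / Y ; c564 / +, and knockdown males carried in addition UAS-Mef2-IR[GD15549] / +, a hairpin transgene that targets Mef2. All flies thus carried the w[1118] allele and the c564 GAL4 driver, which is known for activity in fat body and in hemocytes and other tissues. The controls carried no hairpin transgene, so the transgene itself and the loss of Mef2 cannot be told apart, and the series' design text and the sample labels place the hairpin on different chromosomes. Because whole flies were sampled, fewer cells of a type and less RNA per cell cannot be told apart.

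Total counts were 43823883 to 102851945 per library. Levels are counts per 1000000 (CPM), scaled by TMM, and changes are log2 fold changes of knockdown over control from edgeR's quasi-likelihood test over 13928 genes, called at a Benjamini-Hochberg adjusted p under 0.05. The error after ± is the SD of 5 libraries. The targeted gene Mef2 stood at 93.6 ± 4.6 CPM in the controls against 79.3 ± 5.1 CPM after knockdown (log2 -0.24, SE 0.06, edgeR adjusted p = 0.0149), and the groups did not overlap. It was not called in replicates 4 and 5 alone (log2 -0.12, edgeR adjusted p = 0.28). The pigment gene w, which marks many fly transgenes, rose by a log2 of 2.87 (SE 0.16, edgeR adjusted p = 8.61e-07). Libraries of replicates 1 to 3 and of replicates 4 and 5 stood apart in both groups, although no label names such sets. The split was thus taken from these data, and p-values for a difference between the sets do not allow for that choice. Changes are also given within each set. Deviations from the group mean correlated at 0.15 to 0.40 between control and knockdown libraries of the same set with different numbers, and at -0.36 to -0.11 between libraries of different sets. Deviations balance out within each group, so positive values within the sets entail negative values between them.

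Transcripts of both collagen IV chains, of nidogen and of papilin were higher in the Mef2 knockdown, while laminin transcripts and those of SPARC and peroxidasin did not pass the test. The called genes were Col4a1, vkg, Ndg and Ppn, 4 of 9, with rises of 1.5-fold to 1.71-fold, and none was lower. Among all tested genes 11.1% were called higher and 5.51% lower. Higher genes made up 66.9% of these calls, and 53.2% with upper-quartile scaling, under which the same 4 members and no others were called. The median log2 change was 0.33 over the 9 genes and close to 0 (-0.004) over all tested genes. The CPM of the 2 groups did not overlap, with knockdown above control, in Col4a1, Ndg and Ppn, 3 of 9, against 11.8% of all tested genes. These shares over all tested genes are not matched for level. By mean level Ndg stood above 31.3% of tested genes, and the other members above 74.7% (LanB2) to 97.4% (Ppn).

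**Figure D1:**
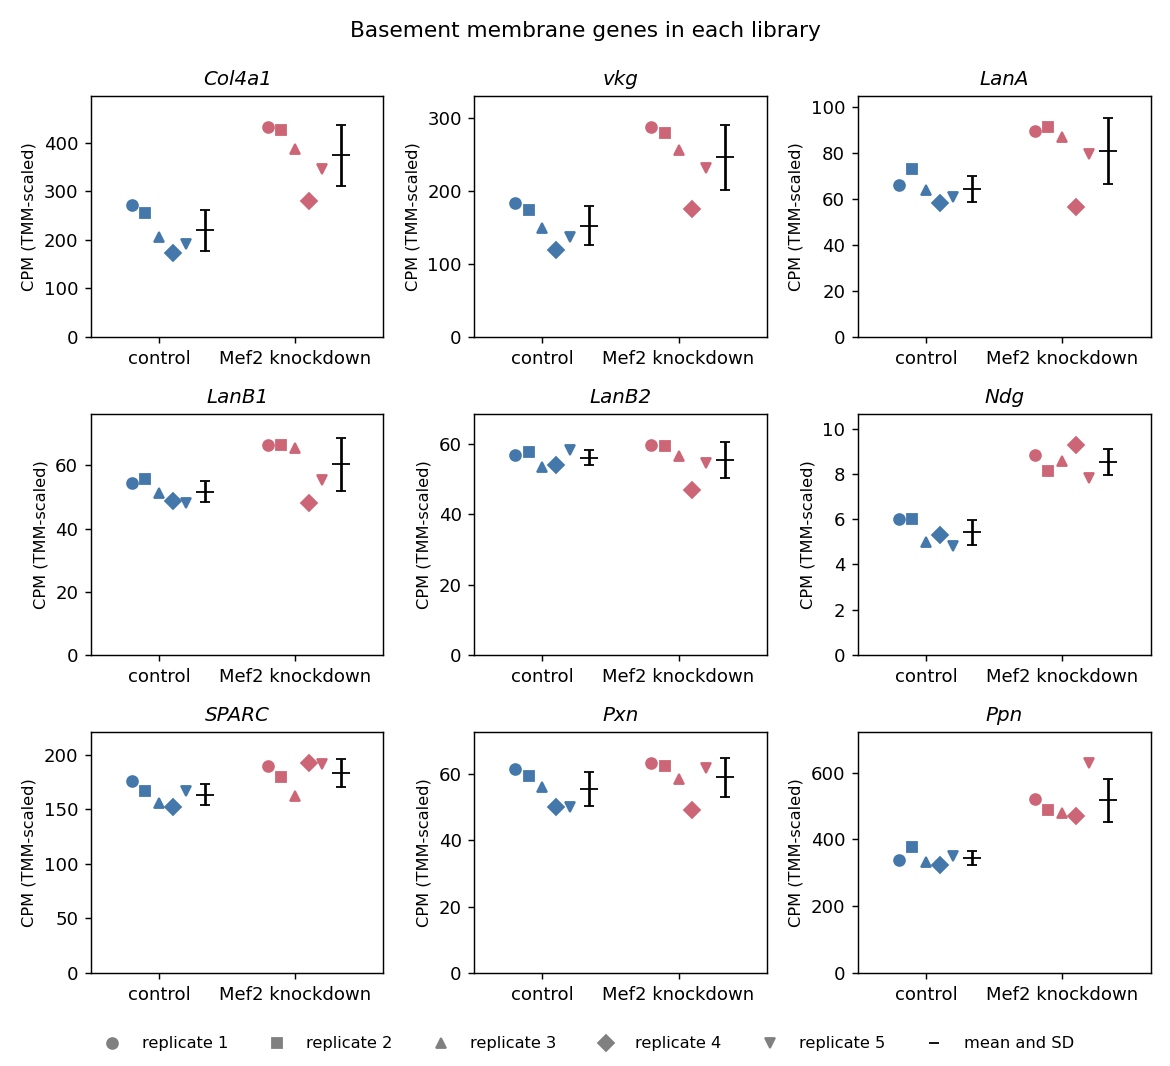
CPM of each of the 9 basement membrane genes in 5 control and 5 Mef2 knockdown libraries, with the symbol giving the replicate number and the bar the mean and SD. Col4a1, Ndg and Ppn show no overlap between the groups, and knockdown replicate 4 is the lowest of its group in 7 of the 9 genes.

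Per length of exon, SPARC was the most abundant of the 9 transcripts and Ndg the least. In control the level was 135.9 ± 7.9 CPM per kb of exon for SPARC, a calcium-binding matrix protein that associates with collagen IV. Ppn (36.1 ± 2.1 CPM per kb) and Col4a1 (35.6 ± 6.9 CPM per kb) followed, with ranges that overlapped, and then vkg (23.4 ± 4.1 CPM per kb), whose highest library at 28.3 reached the lowest of Col4a1 at 27.9. LanB2 (9.46 ± 0.37 CPM per kb), Pxn (9.31 ± 0.88) and LanB1 (8.23 ± 0.54) lay close together. Pxn overlapped both of its neighbours, and LanB1 at 7.66 to 8.88 did not reach LanB2 at 9.02 to 9.83. LanA (5.51 ± 0.49 CPM per kb) and Ndg (1.13 ± 0.12 CPM per kb) were lower, each with no library in the range of the gene above it. In knockdown the order differed in places: Col4a1 (60.7 ± 10.2 CPM per kb) stood above Ppn (54.1 ± 6.8), and Pxn (9.90 ± 0.98) and LanB1 (9.61 ± 1.33) above LanB2 (9.36 ± 0.88), all with overlapping ranges. These levels use the summed exon length of all annotated transcripts of a gene, which a fly tissue need not all express.

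**Figure D2:**
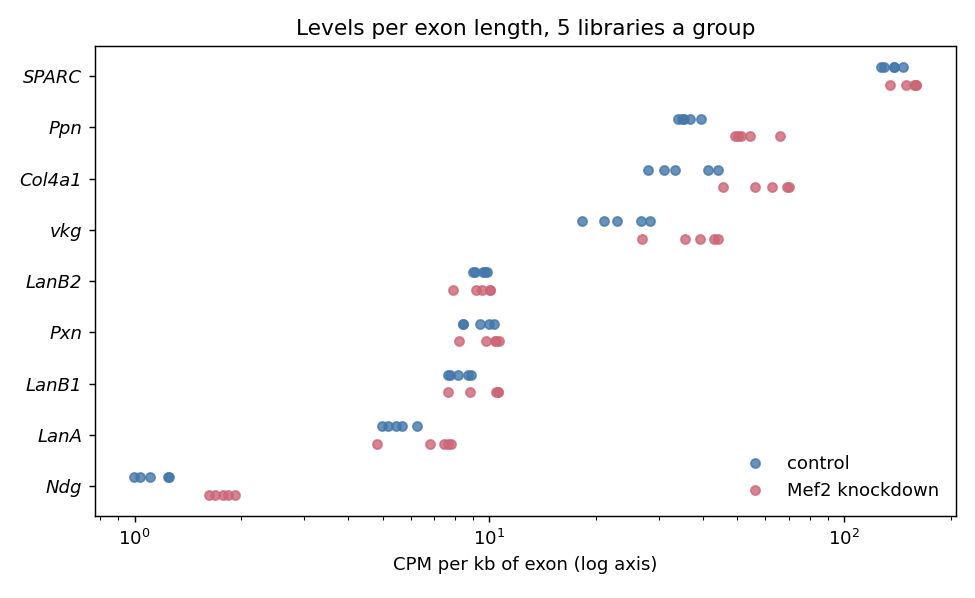
Level of each gene in CPM per kb of exon on a log axis, with 1 point per library and the genes ordered by their control mean. SPARC lies at 127 to 160 across both groups and Ndg at 0.997 to 1.92, and the laminin genes and Pxn share a narrow band.

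Collagen IV in the fly is a trimer of the chains encoded by Col4a1 (FBgn0000299, chromosome 2L, 5029609 to 5037279, plus strand, BDGP6) and vkg (viking, FBgn0016075, chromosome 2L, 5012144 to 5028191, minus strand). The genes lie head to head, with 1417 bases between their annotated ends at 5028192 to 5029608. Col4a1 was at 271.6, 254.9, 205.6, 172.3 and 191.4 CPM in control replicates 1 to 5 and at 432.2, 425.5, 387.2, 280.5 and 346.0 CPM in knockdown replicates 1 to 5. Every knockdown library was above every control library, although knockdown replicate 4 exceeded control replicate 1 only slightly. The log2 change was 0.77 (SE 0.15, edgeR adjusted p = 0.00496), from 219.2 ± 42.4 to 374.3 ± 62.7 CPM. For vkg control replicates 1 to 5 held 184.0, 173.8, 149.1, 118.6 and 136.5 CPM, and in knockdown the values were 287.6, 279.4, 255.8, 175.7 and 231.5 CPM. Knockdown replicate 4 fell below control replicate 1, and the other knockdown libraries were above all controls. The log2 change was 0.69 (SE 0.15, edgeR adjusted p = 0.00948).

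Both collagen genes changed by about as much in each set of replicates. In replicates 1 to 3 alone Col4a1 changed by a log2 of 0.77 and vkg by 0.70, and in replicates 4 and 5 alone by 0.76 and 0.65. Within control, too, replicates 1 and 2 held the highest levels of both genes and replicate 4 the lowest. The spread between control libraries was wide, with a coefficient of variation of 19.3% for Col4a1 and 17.6% for vkg, against 3.87% to 10.3% for the other 7 genes.

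The ratio of the collagen transcripts within a library needs no scaling between libraries. Col4a1 counts per kb of exon were 1.56, 1.55, 1.45, 1.53 and 1.48 times those of vkg in control replicates 1 to 5. In knockdown replicates 1 to 5 they were 1.58, 1.61, 1.60, 1.68 and 1.58 times those of vkg. The groups did not overlap, but the difference was small, a log2 of 0.09. It had p = 0.00794 in a two-sided exact permutation test with n = 5 per group, the smallest p that design allows, and an adjusted p of 0.0119 over 3 ratios. With differences taken within replicate numbers, the exact permutation of signs gave an adjusted p of 0.0938, and its smallest possible p is above the threshold.

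**Figure D3:**
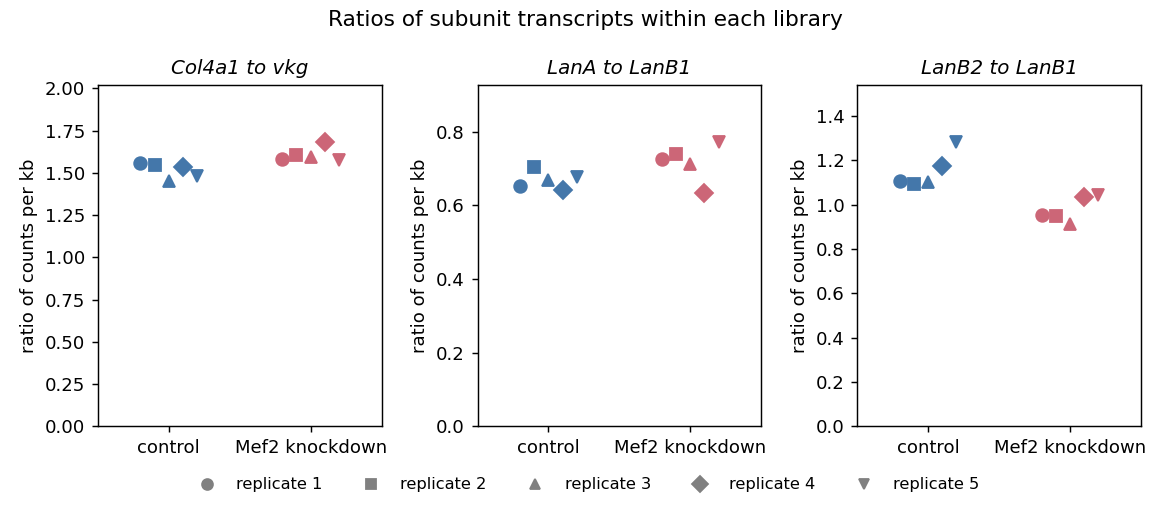
Ratios of counts per kb of exon between subunit genes in each library, for Col4a1 to vkg, LanA to LanB1 and LanB2 to LanB1, with the symbol giving the replicate number and the axis starting at 0. The groups separate for Col4a1 to vkg (1.45 to 1.56 against 1.58 to 1.68) and for LanB2 to LanB1 (1.09 to 1.28 against 0.914 to 1.04), and overlap for LanA to LanB1.

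Laminin is a trimer of an alpha, a beta and a gamma chain, which in the fly are encoded by LanA (alpha, shared with wb), LanB1 (beta) and LanB2 (gamma). LanA (FBgn0002526, chromosome 3L, 6203831 to 6218022) held 66.3, 73.1, 63.9, 58.1 and 60.6 CPM in control replicates 1 to 5 and 89.6, 91.3, 86.9, 56.5 and 79.6 CPM in knockdown replicates 1 to 5. Of the knockdown libraries 4 were above all controls, and replicate 4 was below all of them. The log2 change was 0.33 (SE 0.12) and was not called (edgeR adjusted p = 0.0756). LanB1 (FBgn0261800, chromosome 2L, 7811438 to 7820771) was at 48.1 to 55.8 CPM in control and at 66.5, 66.4, 65.7, 48.0 and 55.4 CPM in knockdown replicates 1 to 5, a log2 change of 0.22 (SE 0.09, edgeR adjusted p = 0.107). Knockdown replicates 1 to 3 lay above every control library and replicate 4 below every one.

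With the replicate number as a block, LanA (log2 0.31, edgeR adjusted p = 0.0233) and LanB1 (log2 0.21, edgeR adjusted p = 0.0441) were called. That fit called 6 of the 9 genes higher, against 13.1% of all tested genes. Without knockdown replicate 4 the changes were 0.41 for LanA (edgeR adjusted p = 0.00362) and 0.28 for LanB1 (edgeR adjusted p = 0.0265). Replicates 1 to 3 alone gave 0.40 and 0.30, and 6 of the 9 genes were called higher there, LanA and LanB1 among them, against 15.4% of all genes tested in that fit. Replicates 4 and 5 alone gave 0.17 and 0.07, and 4 of the 9 were called higher, without the laminins, against 13.2%.

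LanB2 (FBgn0267348, chromosome 3L, 9614914 to 9623980) held 56.9, 57.5, 53.3, 54.0 and 58.2 CPM in control replicates 1 to 5 and 59.6, 59.4, 56.5, 46.8 and 54.4 CPM in knockdown replicates 1 to 5. The groups overlapped, with a log2 change of -0.02 (SE 0.07, edgeR adjusted p = 0.882), and the sign of this change differed between the sets of replicates (0.07 and -0.17). The ratio of LanB2 to LanB1, the gamma to the beta chain per kb of exon, was 1.11, 1.09, 1.10, 1.18 and 1.28 in control replicates 1 to 5. It was 0.952, 0.951, 0.914, 1.04 and 1.04 in knockdown replicates 1 to 5, lower than in every control library. The log2 difference was -0.23 (two-sided exact permutation p = 0.00794, n = 5 per group, adjusted p = 0.0119 over 3 ratios), and the sets of replicates gave -0.23 (1 to 3) and -0.24 (4 and 5). With signs permuted within replicate numbers the exact adjusted p was 0.0938, with the ratio lower in knockdown in each of the 5 pairs. The ratio of LanA to LanB1 was 0.641 to 0.704 in control and 0.633 to 0.772 in knockdown (log2 difference 0.10, exact permutation p = 0.127). Without knockdown replicate 4 that difference was 0.14 and was called (exact adjusted p = 0.0159).

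**Figure D4:**
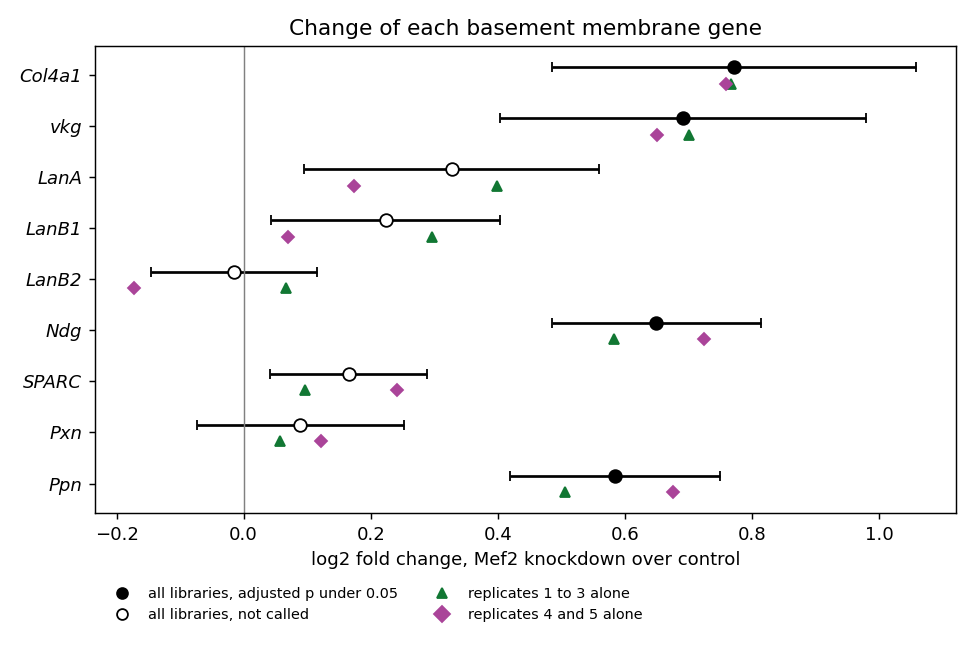
Log2 fold change of knockdown over control for each gene, with circles for all 10 libraries, bars of 1.96 SE, and triangles and diamonds for fits of replicates 1 to 3 and of replicates 4 and 5 alone. The filled circles are Col4a1 (0.77), vkg (0.69), Ndg (0.65) and Ppn (0.58), and LanB2 lies at -0.02.

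Ndg encodes nidogen, a glycoprotein that binds laminin and collagen IV. Ndg (FBgn0026403, chromosome 2R, 10313891 to 10322104) was at 5.99, 6.01, 4.99, 5.31 and 4.80 CPM in control replicates 1 to 5 and at 8.83, 8.13, 8.56, 9.27 and 7.80 CPM in knockdown replicates 1 to 5. The groups did not overlap, and knockdown replicate 4 was here the highest library. The log2 change was 0.65 (SE 0.08, edgeR adjusted p = 0.000507), 0.58 within replicates 1 to 3 and 0.72 within replicates 4 and 5. Counts of Ndg were 218 to 830 per library. Its exons overlap 158 bases of CG34222 on the opposite strand, and CG34222 had a log2 change of -0.13 (edgeR adjusted p = 0.287).

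Ppn encodes papilin, a large proteoglycan-like matrix protein with domains related to ADAMTS metalloproteinases. Ppn (FBgn0003137, chromosome 3R, 28520665 to 28540324) had the highest CPM of the 9 genes, with 338.7, 376.4, 332.5, 324.4 and 350.6 CPM in control replicates 1 to 5. The knockdown libraries held 519.3, 489.2, 478.7, 468.6 and 627.9 CPM, all above every control library and highest in replicate 5. The log2 change was 0.58 (SE 0.08, edgeR adjusted p = 0.00102), 0.51 within replicates 1 to 3 and 0.68 within replicates 4 and 5.

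SPARC and Pxn did not pass the test. SPARC (FBgn0026562, chromosome 3R, 26869238 to 26871995) held 175.7, 166.3, 155.3, 152.2 and 166.5 CPM in control replicates 1 to 5 and 189.5, 179.6, 162.2, 192.1 and 191.6 CPM in knockdown replicates 1 to 5. Of the knockdown libraries 4 lay above all controls, and replicate 3 lay within their range. The log2 change was 0.17 (SE 0.06, edgeR adjusted p = 0.0872), and it was called without knockdown replicate 3 (0.21, edgeR adjusted p = 0.0367). Pxn encodes peroxidasin, the peroxidase whose activity forms sulfilimine crosslinks between collagen IV molecules. Pxn (FBgn0011828, chromosome 3L, 2601455 to 2630064) was at 50.0 to 61.5 CPM in control and 49.0 to 63.3 CPM in knockdown, with a log2 change of 0.09 (SE 0.08, edgeR adjusted p = 0.456). Of the exon bases of Pxn 233 overlap CG16986 on the opposite strand or lncRNA:CR45660 on the same strand.

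The difference of the knockdown effect between the sets of replicates was called in 0 of the 9 genes, against 18.8% of all tested genes (edgeR interaction test), and 2 of the 9 had an unadjusted p under 0.05. Without knockdown replicate 4 or 5 the second set holds 1 knockdown library, so only the size of the difference is given. The log2 change in the second set minus that in the first was 0.25 for Pxn and 0.39 for Ppn without knockdown replicate 4. Without knockdown replicate 5 it was -0.47 for LanA, -0.30 for LanB1 and -0.32 for LanB2. With all libraries these 5 values were 0.09, 0.19, -0.20, -0.20 and -0.21.

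The genes differed in how their libraries varied within a group. Knockdown replicate 4 was the lowest of its group in 7 of the 9 genes and the highest in the other 2, SPARC and Ndg, and control replicate 4 was the lowest of its group in 6. As a description over 10 libraries, deviations of log2 CPM from the group mean were correlated with the mean scaled deviation of the other 8 genes at r = 0.95 for Col4a1, 0.95 for vkg, 0.92 for Pxn, 0.83 for LanA, 0.78 for LanB1 and 0.72 for LanB2. The correlation was 0.29 for Ppn, 0.12 for Ndg and 0.11 for SPARC. These deviations share a library and its scaling.

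Outside the lists, the genes whose deviations followed the mean of the 9 most closely were Mbs (r = 0.98), CG32264 (0.98), CG17193 (0.97), the mitochondrial large ribosomal RNA mt:lrRNA (0.97) and CG1674 (0.97), out of 10520 candidates and over 10 libraries. Mbs encodes the myosin binding subunit of myosin phosphatase. None of the 5 was called between the groups, with log2 changes of -0.05 to 0.10 (edgeR adjusted p 0.302 to 0.871). The level of mt:lrRNA was 62880, 61800, 50910, 45130 and 43390 CPM in control replicates 1 to 5 and 62290, 59180, 55350, 39290 and 55440 CPM in knockdown replicates 1 to 5. Replicates 1 and 2 were thus high and replicate 4 of the knockdown lowest, as in the collagen genes, and the part of this shared variation in the results was not tested.

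Of 11 genes for enzymes and transport factors that collagen IV passes on its way out of the cell, 6 were called higher in knockdown and none lower. Over all tested genes 11.1% were called higher and 5.51% lower. The median log2 change of the 11 was 0.26. The prolyl 4-hydroxylase subunit gene PH4alphaMP (log2 0.04, edgeR adjusted p = 0.773), Sar1 (0.07, 0.564), Rab8 (0.15, 0.0916), Crag (0.14, 0.145) and strat (0.12, 0.192) did not pass the test. Plod, the lysyl hydroxylase that modifies collagen, rose most. It was at 19.6, 18.4, 17.1, 19.6 and 21.1 CPM in control replicates 1 to 5 and at 78.6, 83.3, 70.4, 35.5 and 45.0 CPM in knockdown replicates 1 to 5, a log2 change of 1.71 (SE 0.21, edgeR adjusted p = 0.00033). All knockdown libraries were above all controls, and replicates 1 to 3 held the higher values. Replicates 1 to 3 gave a change of 2.08 and replicates 4 and 5 of 0.96, and these differed (edgeR interaction adjusted p = 0.00359). PH4alphaEFB, a prolyl 4-hydroxylase subunit of the fat body, rose from 49.1 ± 5.9 to 75.0 ± 5.4 CPM (log2 0.61, SE 0.08, edgeR adjusted p = 0.000667). Of the secretory pathway, the COPII coat subunit Sec31 rose by a log2 of 0.48 (SE 0.06, edgeR adjusted p = 0.000293) and the small GTPase Rab10, which directs basement membrane secretion in follicle cells of the ovary, by 0.38 (SE 0.08, edgeR adjusted p = 0.0068). Tango1 and Pdi have no row under their current identifiers and are not analysed here.

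Some receptors on the cell side were higher too. Of 9 integrin and other receptor genes 3 were called higher and none lower, against 11.1% and 5.51% of all tested genes. Their median log2 change was 0.30. The heparan sulfate proteoglycan Sdc (syndecan) rose from 220.1 ± 11.3 to 293.1 ± 27.0 CPM (log2 0.41, SE 0.07, edgeR adjusted p = 0.00238). The integrin beta chains mys (log2 0.30, SE 0.06, edgeR adjusted p = 0.0088) and Itgbn (log2 0.39, SE 0.12, edgeR adjusted p = 0.0445) were higher as well. In replicates 4 and 5 alone mys was not called (log2 0.32, edgeR adjusted p = 0.0758). The call of Itgbn was lost without any 1 of control replicates 1, 2, 3 and 5 or knockdown replicates 3, 4 and 5 (edgeR adjusted p 0.0607 to 0.105). Of 10 genes of integrin adhesion sites 5 were called higher and none lower, against the same shares, with a median of 0.17. The genes called included the PINCH homolog stck (0.29), vinculin Vinc (0.28), by (0.21) and the kindlin Fit1 (0.18). Vinc (log2 0.28, edgeR adjusted p = 0.064) and Fit1 (0.16, 0.238) were not called in replicates 4 and 5 alone. Fit1 was not called without any 1 of control replicates 1 to 4 or without knockdown replicate 1 (edgeR adjusted p 0.0508 to 0.0867). The count was 3 without any 1 of control replicates 1 to 4 and with upper-quartile scaling.

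Other matrix genes moved both ways or did not pass. Against 11.1% higher and 5.51% lower over all tested genes, 1 of 12 further basement membrane and matrix genes was higher and 2 were lower. The higher gene was Sdc, which is also counted among the receptors. The lower genes were wb, the second laminin alpha chain, from 25.2 ± 1.5 to 21.8 ± 1.2 CPM (log2 -0.21, SE 0.06, edgeR adjusted p = 0.0321), and tnc (tenectin), an integrin ligand, from 37.9 ± 3.6 to 30.9 ± 2.4 CPM (log2 -0.29, SE 0.08, edgeR adjusted p = 0.0245). Neither was called without control replicate 4 or 5 or in replicates 1 to 3 alone, and wb was also lost without control replicate 2 or 3 and with the replicate block (edgeR adjusted p = 0.0555). The median of these 12 genes was -0.03. Replicates 1 to 3 alone gave 3 of the 12 higher and 1 lower, and replicates 4 and 5 alone 1 higher and 2 lower. In these fits 15.4% and 13.2% of all tested genes were higher, and 1386 of 13977 and 2011 of 13927 were lower. Among 8 genes of matrix remodelling and crosslinking, which hold the metalloproteinases Mmp1 and Mmp2 and their inhibitor Timp, none was called in either direction by edgeR, with log2 changes of -0.27 to 0.24. At an unadjusted p under 0.05 edgeR had 2 higher and none lower, and DESeq2 and limma voom called none. The count depended on the fit: 1 was higher with the replicate block and 1 with voom quality weights, 2 with the set of replicates as a covariate, and 1 in replicates 4 and 5 alone. In replicates 1 to 3 alone Mmp1 (log2 0.17, edgeR adjusted p = 0.0132) and stl (0.30, 0.00301) were called higher and nolo lower (-0.15, 0.0145), genes named here after their values were seen. Mmp1 was also the gene called in replicates 4 and 5 alone (0.30, edgeR adjusted p = 0.0414).

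**Figure D5:**
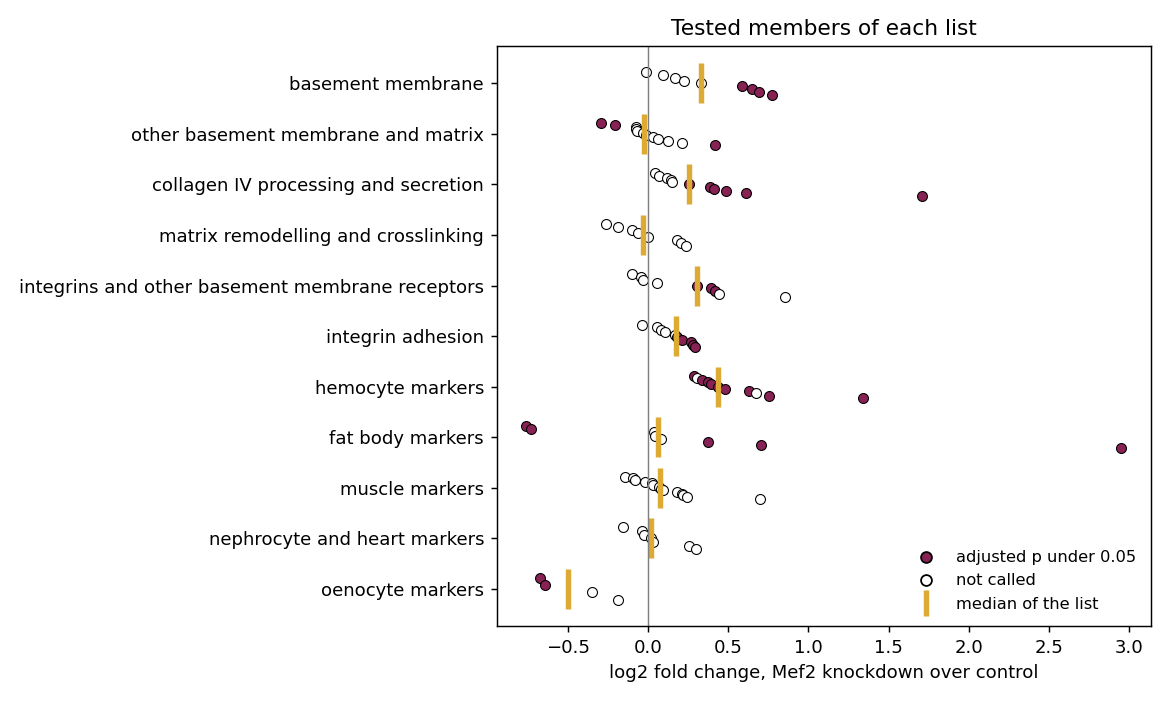
Log2 fold change of every tested gene in each list, with filled points for genes called at an edgeR adjusted p under 0.05 and a bar at the list's median. The medians are 0.33 for the basement membrane genes, 0.26 for collagen IV processing and secretion, 0.43 for hemocyte markers and -0.50 for oenocyte markers.

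Markers of cells that make or contact basement membrane were read beside these genes. Hemocyte markers were higher in knockdown. Of 11, 9 were called higher and none lower, against 11.1% and 5.51% of all tested genes, and none was at 0. Their summed level was 889 to 1088 CPM in control and 1607 to 2482 CPM in knockdown. The largest part of that sum was vir-1 (593 ± 56 to 1500 ± 354 CPM, log2 1.34, SE 0.15, edgeR adjusted p = 0.000142). The rise of the sum is thus largely that of vir-1. NimB5 (0.76), a secreted Nimrod protein that the fat body is also known to make, and the scavenger receptors Sr-CI (0.63) and crq (0.39) rose as well, and crq was not called without control replicate 3 (edgeR adjusted p = 0.0569). Hml, which encodes hemolectin, was chosen after its values were seen, and its log2 change was 0.29 (SE 0.08, edgeR adjusted p = 0.0259). In replicates 1 to 3 alone 10 of the 11 markers were called higher and in replicates 4 and 5 alone 7. Over all genes tested in these fits the shares were 15.4% and 13.2%. Of the 9 called over all libraries 4 were not called in replicates 4 and 5 alone, namely Hml (0.25, edgeR adjusted p = 0.122), eater (0.35, 0.0894), ush (0.21, 0.201) and NimC1 (0.07, 0.724), and the sets differed in NimC1 (edgeR interaction adjusted p = 0.0328). Hemocytes are known to express Pxn and, as said above, to make collagen IV. The log2 changes were 0.09 for Pxn, 0.77 for Col4a1 and 0.69 for vkg. The part of hemocyte number in the rise of the collagen genes was not tested.

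Fat body markers changed differently in the sets of replicates, some in direction and others in size alone. In replicates 1 to 3 alone 7 of 9 tested were called higher and 2 lower, and in replicates 4 and 5 alone 1 of 8 was higher and 4 lower. Over all genes tested in these fits 15.4% and 13.2% were higher, and 1386 of 13977 and 2011 of 13927 were lower. The median log2 change over the 8 genes tested in all libraries was 0.42 in the first set and -0.65 in the second, and the difference was called in 6 of the 8, against 18.8% of all tested genes. The larval serum protein genes Lsp2 (log2 0.51 and -1.73) and Lsp1beta (0.69 and -1.77), named here after their values were seen, were called higher in the first set and lower in the second. Between the sets apolpp also changed sign (0.23 and -0.26). Desat1 (-0.56 and -1.04), Lsd-1 (-0.52 and -1.21), Ilp6 (0.34 and 1.39) and AkhR (0.50 and 0.12) kept their sign, as did Fbp2, given below. Ilp6 and AkhR were also named after their values were seen. Over all libraries 3 of the 8 were higher and 2 lower, against 11.1% and 5.51% of all tested genes. The summed level was 5895 to 6939 CPM in control and 3821 to 5528 CPM in knockdown. Most of that sum was Desat1 (3482 ± 154 to 2099 ± 394 CPM) and apolpp (2462 ± 310 to 2528 ± 228 CPM), so its fall is largely that of Desat1. The lipoprotein gene apolpp had a log2 change of 0.04 (edgeR adjusted p = 0.805), the perilipin Lsd-1 fell by 0.76 and the desaturase Desat1 by 0.73. Fbp2 rose by 2.95 from 0.299 CPM, with a change of 3.50 within replicates 1 to 3 and 0.46 within replicates 4 and 5. Fbp1, a larval marker, missed the count filter over all libraries, but in replicates 1 to 3 alone it was called higher (log2 4.14, edgeR adjusted p = 0.00126). Its counts were 6, 7 and 3 in control replicates 1 to 3, against 165, 134 and 45 in knockdown replicates 1 to 3. In replicates 4 and 5 they were 5 and 6 in control and 4 and 4 in knockdown. The number of fat body markers called higher over the libraries kept was 1 when control replicate 2, 3 or 4 or knockdown replicate 1, 2 or 3 was left out.

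Of 14 muscle markers none was called by edgeR over all libraries, nor by DESeq2 or limma voom, and 1 was higher and none lower at an unadjusted p under 0.05. Other fits called a few: Act88F was higher (log2 0.85, edgeR adjusted p = 0.0347) and Mlp84B lower (-0.17, 0.0292) in replicates 1 to 3 alone, TpnC4 was lower in replicates 4 and 5 alone (-0.71, 0.0303), and 1 marker was higher with the set as a covariate. These 3 genes lie outside the naming rule and were picked from their values. With quality weights limma voom called 1 higher. The sums of the 14 were 7936 to 11350 CPM in control and 7054 to 11890 CPM in knockdown, with Mhc at 2250 ± 507 and 2298 ± 723 CPM and Mlc2 at 1239 ± 303 and 1438 ± 328 CPM. None of the 7 tested nephrocyte and heart markers was called by edgeR, among them Cubn (log2 0.30, edgeR adjusted p = 0.0614) and Ndae1 (-0.03), and 2 were higher at an unadjusted p under 0.05. The replicate block called 2 higher, DESeq2 and the set covariate 2 each, limma voom 1 and replicates 4 and 5 alone 1. Of 4 tested oenocyte markers 2 were lower and none higher, against 5.51% and 11.1% of all tested genes. The lower markers were Cyp4g1 (log2 -0.68) and FASN2 (-0.65). The summed level was 27500 to 37390 CPM in control and 18340 to 22930 CPM in knockdown. The part of these cells in the results was not tested.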

How the data were processed

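The deposited table holds unnormalized read counts of 17559 genes in 10 libraries. The submitters' processing notes name STAR 2.4.0j, featureCounts, limma and bcl2fastq, and the genome build BDGP6, without giving the role of each. How strand and multiply mapped reads were handled, and with which annotation, is not given in the sources used here, so reads of genes that overlap on opposite strands may not have been told apart. Per the labels' protocols, libraries were strand-preserving, and the series' design text describes the samples as biological replicates. Identifiers were paired with symbols and exon lengths through Ensembl release 115 of BDGP6, which matched 17253 of 17559. Of 115 listed names, 105 distinct genes had a row.

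Counts were fitted with edgeR 4.0.16 in R 4.3.3 (TMM, filterByExpr at a minimum count of 10, quasi-likelihood test on group over all 10 libraries). The members and lists were chosen with earlier results of these data known. The text names the listed members, Mef2 and w, up to 4 called genes of each pathway list, the 2 most abundant and up to 3 called markers of each cell type, and the 5 genes most correlated with the members. Any other gene named with a value was chosen after its values were seen. Alternatives were limma 3.58.1, DESeq2 1.42.0, other scalings and filters, sets of replicates, a replicate block and leaving out each library.

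Same-numbered control and knockdown samples deviated from their group means together (correlation 0.22 to 0.35 in every pair, above the bound of 0.1). Libraries of the same set with different numbers correlated at 0.15 to 0.40, a range that holds these values. The labels give the numbers no meaning, and these correlations do not set pairing by number apart from the sets of replicates. The replicate block and the permutation of signs assume that pairing. A count of 3 equals 0.0292 to 0.0685 CPM, and covers counting error only. Libraries of 1 group differed by more than sampling noise (chi-square over degrees of freedom at least 6.86). The steps were tested on simulated data for knockdown against control: among 13867 genes, they recovered 30% of 50 genes changed 1.25-fold, 82% at 1.5-fold and 98% at 2-fold. The simulated libraries held no sets of replicates and no pairing, and genes of low level were not among those changed. Recovery in the real libraries may therefore differ.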

Additional observations from a re-analysis of the deposited data

Results flagged for a closer look

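Of 92 groups of 5 libraries checked, 4 held a library far from the other 4, and chance alone flags about 1 in 20 groups. Knockdown replicate 5 was the highest of its group in Sdc (340.1 CPM) and mys (236.0 CPM). Knockdown replicate 4 had the lowest level of Mbs (179.3 CPM) and the highest ratio of Col4a1 to vkg (1.68 per kb of exon).

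The knockdown effect differed between the sets of replicates by the edgeR interaction test in 9 of the 43 genes given by the naming rule. Genes named after their values were seen, such as NimC1, Lsp2 and Lsp1beta, are outside this count. That is near the 18.8% of all tested genes, and none of the 9 was a basement membrane gene. As log2 change in replicates 4 and 5 minus that in replicates 1 to 3, the differences were 0.24 for Mef2, 0.51 for w, -0.41 for tnc, -1.09 for Plod, 0.29 for Rab10, 0.19 for stck, -0.47 for apolpp, -0.66 for Lsd-1 and -3.01 for Fbp2.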

How the results depend on the processing

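Col4a1, vkg, Ndg and Ppn were called higher under all 22 alternatives run, with log2 changes of 0.70 to 0.87, 0.61 to 0.79, 0.58 to 0.72 and 0.49 to 0.68. LanA was called under 6 of the 22 and LanB1 under 5, and the cause was not tested. The number of members called higher was 4 to 6 and of members called lower 0 throughout. The replicate block turned 2 member calls, LanA and LanB1, and left 1 context gene lower instead of 2. Its permutation of signs ended the calls of the ratios Col4a1 to vkg (0.088) and LanB2 to LanB1 (-0.23), by construction with 5 pairs. Leaving out 1 library gave 0.072 to 0.098, 0.068 to 0.14 (LanA to LanB1) and -0.26 to -0.20 for the ratios. The difference between the sets also moved when 1 library was left out, and its ranges are given below for members whose sign changed.

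Over all tested genes, the number higher was 2687 with the set as a covariate, and the number lower was 2084 with that covariate, 1386 in replicates 1 to 3 alone, 2011 in replicates 4 and 5 alone, 1304 with DESeq2 and 1547 with voom quality weights. Leaving out 1 library gave 853 to 1612 higher and 414 to 941 lower (fewest without control replicates 3 and 4), and 0 to 2 context genes lower. Reversed signs concerned changes that the main test did not call. LanB2 was 0.067 in replicates 1 to 3 and 0.061 with quality weights. Mhc was -0.004 with the replicate block, -0.0012 with the covariate, -0.20 in replicates 4 and 5, -0.0063 with upper-quartile scaling and -0.011 with voom. Ndae1 was 0.0029 in replicates 1 to 3, apolpp -0.26 in replicates 4 and 5, and CG17193 0.012 and CG1674 0.014 with quality weights. Upper-quartile scaling gave -0.0001 for apolpp, -0.0002 for mt:lrRNA and -0.0006 for the interaction of Col4a1. With 1 library left out the ranges were -0.054 to 0.021 for LanB2, -0.081 to 0.16 for Mhc, -0.014 to 0.090 for apolpp, -0.025 to 0.12 for mt:lrRNA, -0.11 to 0.013 for CG17193 and -0.074 to 0.0086 for CG1674. Interaction ranges were -0.14 to 0.16 for Col4a1, -0.23 to 0.16 for vkg, -0.47 to 0.023 for LanA, -0.085 to 0.25 for Pxn and -0.028 to 0.39 for Ppn.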
